A study of Homo sapiens with 3 samples.

Results

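NRF2 (gene NFE2L2) target genes are the genes by which a cell answers oxidants and reactive chemicals, and 10 of them were followed here in TNBC xenograft tumors: GCLC, GCLM, SLC7A11, TXNRD1, SRXN1, NQO1, HMOX1, AKR1C1, AKR1C2 and AKR1C3. They were taken by name and not by their values, and all 10 are among the 29689 gene symbols measured. In unstressed cells the adaptor KEAP1 hands NRF2 to a CUL3 and RBX1 ubiquitin ligase for degradation. Oxidants and electrophiles modify KEAP1, and NRF2 then gathers in the nucleus, pairs with a small MAF protein (MAFF, MAFG or MAFK) and binds antioxidant response elements near its targets, while BACH1 competes for the same elements. In breast and other cancers NRF2 activity is known for protecting tumor cells from oxidants and drugs.

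The tumors were xenografts of SUM-149, a human TNBC cell line, grown with Matrigel in the mammary fat pads of female Nu/Nu nude mice, which lack T cells but keep macrophages and stroma. There is 1 RNAseq library each for vehicle, CDK2i (dinaciclib, 10 days) and EZH2i (EPZ6438, 10 days), and no other genetic change is named for any group. The labels give EPZ6438 for these tumors, whereas a legend of the study names GSK343 for treated xenografts of this line. Neither the age of the mice nor whether a library came from 1 tumor or several is stated.

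With 1 library per group no value below has a replicate, no SD can be given and no p-value was computed. Both treated tumors were compared with the same vehicle library, so an error in that library would enter both comparisons. Values are FPKM, fragments scaled to gene length and to library size, which lets genes be compared with each other within a library, and changes are differences of the deposited log2 FPKM. A gene is called higher or lower when its levels differed by more than 2-fold and the larger of them exceeded log2 FPKM 3, that is 8 FPKM, the thresholds the study uses. The depth behind the values was 16.8 M fragments in vehicle, 19.1 M in CDK2i and 17.5 M in EZH2i, as read from the smallest FPKM steps. Each change is given with a 95% exact binomial interval (95% CI) that covers counting error only. As a stand-in for replicate error, the spread of a gene is the SD of the EZH2i minus CDK2i difference over the 200 genes nearest to it in mean expression, which holds drug effects too. In these bulk tumors, fewer cells of a type and less RNA per cell cannot be told apart.

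The breast epithelium markers fitted the label of the cells. All 8 were above the minimum in each tumor, and their summed level was 5279 FPKM in vehicle, 12406 under CDK2i and 4971 under EZH2i. KRT5, KRT14 and KRT17, keratins of basal epithelium, were called higher in CDK2i by 1.17, 1.35 and 1.29 on the log2 scale, and EGFR higher in EZH2i by 1.05, a call that ended in 2 of 6 other settings. Of the receptors that define TNBC by their absence, ESR1 lay between 0.792 and 1.1 FPKM and PGR was listed at 0 in vehicle and near 0 in the others. ERBB2 was at 30.4, 30.2 and 21.9 FPKM in vehicle, CDK2i and EZH2i.

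The 10 target genes covered a wide range of levels in the vehicle tumor, from NQO1 at 19.0 FPKM down to SLC7A11 at 0.191 FPKM. NQO1 and GCLM held the first and second place in all 3 libraries, and HMOX1, SRXN1 and SLC7A11 the last 3. The middle of the order differed, since in EZH2i TXNRD1 and GCLC stood above AKR1C3, AKR1C2 and AKR1C1, while in CDK2i AKR1C2 and AKR1C3 stood above both. Neighbours such as GCLM at 8.44 and GCLC at 8.11 FPKM in vehicle, or SRXN1 at 0.199 and SLC7A11 at 0.191, were close. Without replicates the error of a difference between genes of a library is not known, so their order is not settled.

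**Figure D1:**
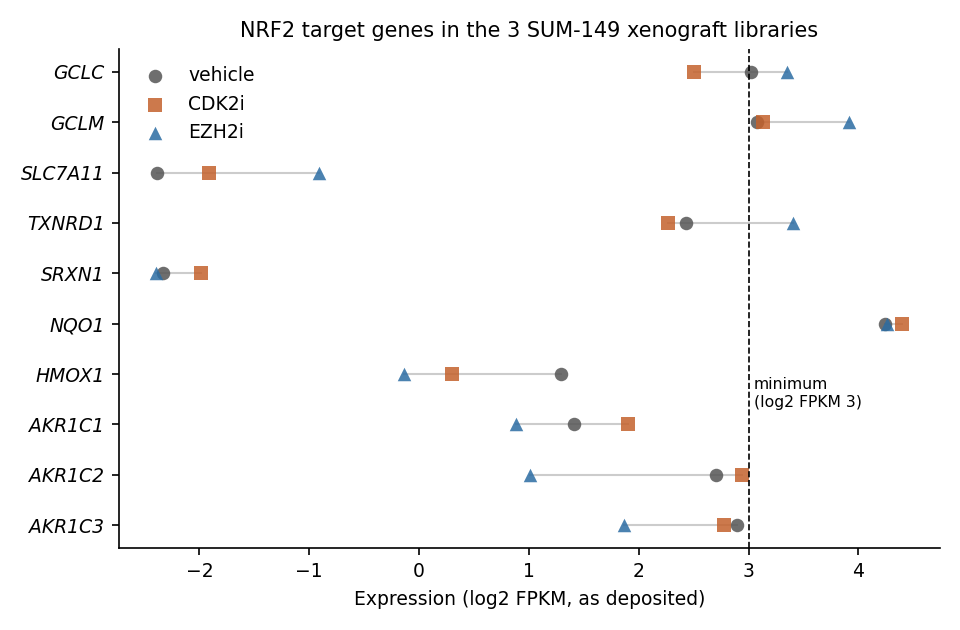
Expression of the 10 NRF2 target genes (rows) as deposited log2 FPKM (x axis) in the vehicle (circles), CDK2i (squares) and EZH2i (triangles) tumors, 1 library each. The dashed line is the minimum of log2 FPKM 3, which NQO1 and GCLM exceeded in all 3 libraries, GCLC in vehicle and EZH2i, TXNRD1 in EZH2i alone and the other 6 genes in none.

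Against vehicle, none of the 10 genes was called in either treated tumor. Between CDK2i and vehicle 3 of the 10 could have passed the minimum (NQO1, GCLM and GCLC, the last through its vehicle level alone) and 0 were called, where 3.27% of the 6632 genes that could have passed were called higher and 8.07% lower. Between EZH2i and vehicle 4 could have passed, TXNRD1 only through its level under EZH2i, and 0 were called, where 8.93% of 7414 genes were called higher and 4.42% lower. With so few genes above the minimum, a count of 0 lies near what these background shares alone would give. Between the treated tumors, 4 genes could have passed and 1, TXNRD1, was called higher in EZH2i, where 17.5% of 7394 genes were called higher and 6.52% lower.

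With the fold alone and no expression minimum, 0 of 10 genes passed in CDK2i, where 8.63% of the 21049 genes above 0 in both libraries were higher and 19.4% lower. In EZH2i SLC7A11 was above 2-fold higher and HMOX1, AKR1C2 and AKR1C3 were above 2-fold lower, beside 16.1% of 21422 genes higher and 10.9% lower. The median log2 change of the 10 genes was 0.11 in CDK2i, beside −0.11 over 11109 expressed genes, with 6 above 0 and 4 below. In EZH2i it was −0.02 beside 0.19, with 5 above 0 and 5 below. In EZH2i the middle genes of the 10, NQO1 and SRXN1, lay close to 0, and the others ran from AKR1C2 at −1.70 to SLC7A11 at 1.48.

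**Figure D2:**
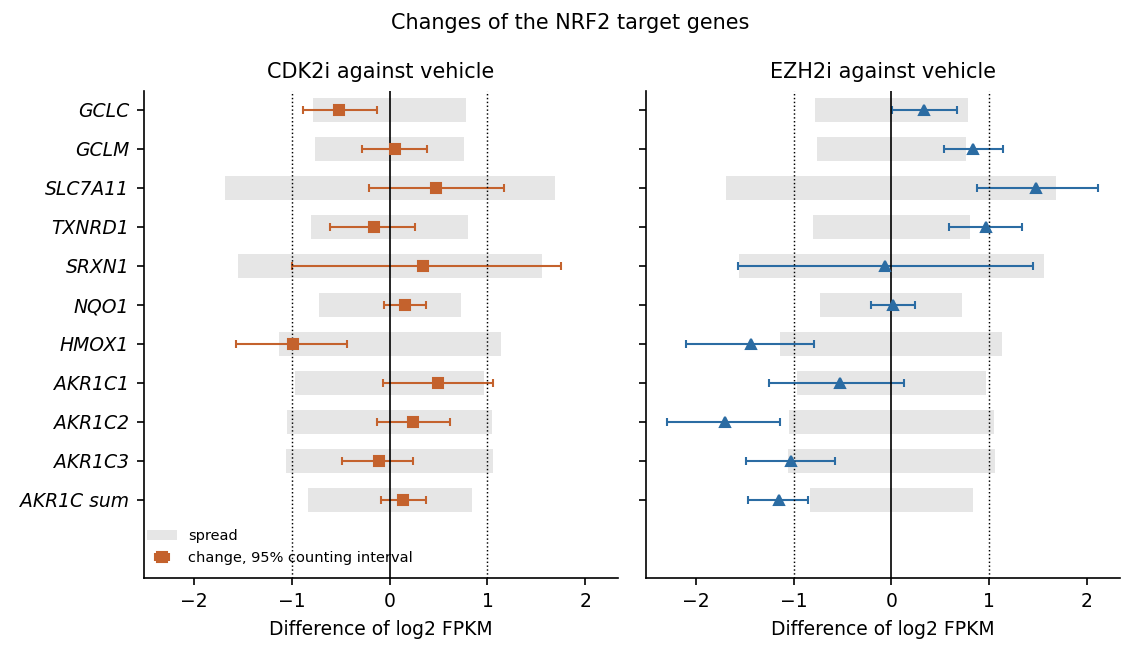
Difference of log2 FPKM from vehicle (x axis) for each NRF2 target gene and for the sum of the 3 AKR1C genes (rows), in CDK2i (left) and EZH2i (right). Points with bars are the change and its 95% counting interval, grey bands are plus and minus the spread, and dotted lines mark a 2-fold change. HMOX1 and AKR1C2 in EZH2i, at −1.43 and −1.70, and the AKR1C sum at −1.15 lay outside both their band and the 2-fold line.

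GCLC and GCLM are the catalytic and the modifier subunit of glutamate-cysteine ligase, the rate-limiting enzyme of glutathione synthesis. GCLC (GRCh37 chr6:53362139-53481768, minus strand) was measured at 8.11 FPKM in vehicle, 5.67 under CDK2i and 10.2 under EZH2i. Its log2 change was −0.52 in CDK2i (95% CI −0.89 to −0.13) and 0.34 in EZH2i (0.00 to 0.67), both within its spread of 0.78. GCLC thus had its lowest level under CDK2i and its highest under EZH2i, and the treated tumors differed by 0.85.

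GCLM (chr1:94350755-94375012, minus strand) was at 8.44 FPKM in vehicle, 8.78 under CDK2i and 15.1 under EZH2i. The log2 change of 0.06 in CDK2i had a 95% CI of −0.28 to 0.39. In EZH2i the change was 0.84 (95% CI 0.53 to 1.14), past its spread of 0.76 but under the 2-fold line. The EZH2i library stood alone for GCLM, with vehicle and CDK2i close together.

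SLC7A11 (chr4:139085251-139163503, minus strand), the light chain of the transporter that imports cystine for glutathione, was weakly expressed, at 0.191 FPKM in vehicle, 0.265 under CDK2i and 0.533 under EZH2i. These FPKM values solve as 31, 49 and 90 fragments. The log2 change was 0.47 in CDK2i (95% CI −0.21 to 1.17) and 1.48 in EZH2i (0.87 to 2.11), within the spread of 1.69 that genes of this low level have. SLC7A11 has the longest canonical transcript of the 10 genes, 9645 bases, and the lowest GC content, 35.4%.

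TXNRD1 (chr12:104609557-104744085, plus strand) is the cytosolic thioredoxin reductase, which uses NADPH to keep thioredoxin reduced. It was at 5.40 FPKM in vehicle, 4.82 under CDK2i and 10.6 under EZH2i. The log2 change was −0.16 in CDK2i (95% CI −0.61 to 0.26) and 0.97 in EZH2i (0.59 to 1.34), the latter past its spread of 0.80 and just short of 2-fold. Between the treated tumors TXNRD1 differed by 1.13 and was called higher in EZH2i, a call that ended when each library was centred on its median gene, when 1 FPKM was added to each value or when the GC and length trend described further on was removed.

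SRXN1 (chr20:627259-633844, minus strand), sulfiredoxin, which repairs overoxidized peroxiredoxins, was the other weakly expressed gene. It was at 0.199 FPKM in vehicle, 0.252 under CDK2i and 0.190 under EZH2i, which solve as 9, 13 and 9 fragments. At this depth the log2 changes of 0.34 (95% CI −1.0 to 1.75) and −0.06 (−1.57 to 1.45) cannot show a 2-fold difference in either direction.

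The promoters of GCLM and TXNRD1 are shown because among the target genes they alone held a match to the core of the antioxidant response element in the 250 bases before a RefSeq start site. The motif searched was TGACNNNGC on both strands, and 10.9% of all 35116 RefSeq promoter windows of this length hold it. Bases farther upstream were not searched, so a window with no match does not show that a gene lacks the element. The table has windows for 8 of the 10 genes, 10 windows in all, and none for HMOX1 and SLC7A11. The sequences are from RefSeq on GRCh38.p14, a newer build than that of the positions above, and are written 5′ to 3′ on the strand of the gene, with the match in capitals.
GCLM chr1:93909431-93909680, minus strand: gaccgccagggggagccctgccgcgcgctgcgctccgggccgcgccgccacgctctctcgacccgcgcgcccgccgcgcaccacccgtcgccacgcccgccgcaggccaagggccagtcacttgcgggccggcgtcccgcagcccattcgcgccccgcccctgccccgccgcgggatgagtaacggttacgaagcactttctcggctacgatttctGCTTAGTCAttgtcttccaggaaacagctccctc
TXNRD1 start site 1, chr12:104215529-104215778, plus strand: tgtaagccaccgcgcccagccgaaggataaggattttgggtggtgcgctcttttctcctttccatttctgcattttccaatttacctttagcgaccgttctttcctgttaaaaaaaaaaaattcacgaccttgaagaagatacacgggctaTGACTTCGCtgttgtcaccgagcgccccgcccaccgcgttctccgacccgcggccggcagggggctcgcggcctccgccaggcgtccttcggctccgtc
TXNRD1 start site 2, chr12:104286782-104287031, plus strand: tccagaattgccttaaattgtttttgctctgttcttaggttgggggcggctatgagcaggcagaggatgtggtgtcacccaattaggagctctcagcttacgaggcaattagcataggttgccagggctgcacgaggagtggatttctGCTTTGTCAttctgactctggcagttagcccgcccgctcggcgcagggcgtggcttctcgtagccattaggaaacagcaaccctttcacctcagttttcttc
In GCLM the motif reads tgactaagc on the strand opposite to the gene, and the match begins 34 bases upstream of the start. In TXNRD1 it reads tgacttcgc on the strand of the gene, 99 bases upstream of start site 1, and tgacaaagc on the opposite strand, 102 bases upstream of start site 2. A match of these letters is a description of the window, and no binding of NRF2 was measured.

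NQO1 and HMOX1 are the most widely used readouts of NRF2, NQO1 as a quinone reductase and HMOX1 as the enzyme that opens heme. NQO1 (chr16:69740899-69760571, minus strand) was at 19.0 FPKM in vehicle, 21.1 under CDK2i and 19.2 under EZH2i. Its log2 change was 0.16 in CDK2i (95% CI −0.06 to 0.37) and 0.02 in EZH2i (−0.21 to 0.24), well within its spread of 0.73. Both intervals leave no room for a 2-fold difference of NQO1 from counting error alone.

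HMOX1 (chr22:35776354-35790207, plus strand) was at 2.45 FPKM in vehicle, 1.23 under CDK2i and 0.908 under EZH2i, which solve as 75, 43 and 29 fragments. The vehicle library was the high one, and both treated libraries were below it. The log2 change was −0.99 in CDK2i (95% CI −1.57 to −0.43), within the spread of 1.14, and −1.43 in EZH2i (−2.10 to −0.80), past it. HMOX1 stayed below the minimum in all 3 libraries and was therefore not called. Since HMOX1 is also strongly expressed by macrophages, the macrophage markers are given beside it. Of the 15 listed, 10 were measured, 9 of them below the minimum in each tumor and 4 listed at 0 in at least 1 tumor, among them CD68, CD163 and PTPRC, which were at most 0.0318 FPKM. Their summed level was 11.6 FPKM in vehicle, 11.0 under CDK2i and 6.63 under EZH2i, of which CD14 alone made up 8.02, 7.95 and 3.15. CD14 was called lower in EZH2i, with a log2 change of −1.35, a call that ended with the GC and length trend removed. The markers did not move together. Of the 6 with no value at 0, 4 lay above vehicle in EZH2i and 2 below, with a median log2 change of 0.27. In CDK2i 2 lay above and 4 below, with a median of −0.10. The part of these cells in the HMOX1 values was not tested. Whether mouse fragments were removed is not given in the sources used here.

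AKR1C1, AKR1C2 and AKR1C3 are neighbouring aldo-keto reductases that reduce steroid hormones, prostaglandins and reactive carbonyls. They are near-identical copies, so how fragments were divided between them is uncertain and their sum is the safer value. In the GENCODE transcripts the coding sequences of AKR1C1 and AKR1C2, 969 bases each, are 98.0% identical with 19 differing bases. A stretch of 100 bases of AKR1C1 also occurs unchanged in AKR1C2 at 18.9% of positions, and a stretch of 150 bases at 4.6%. AKR1C3 is 91.4% identical to AKR1C1 and 91.0% to AKR1C2. Stretches of 100 bases of AKR1C1 and AKR1C2 occur unchanged in AKR1C3 at 2.2% and 8.3% of positions. The likeness extends to the promoters, shown here for AKR1C1 and AKR1C2 from RefSeq (GRCh38.p14) on the strand of each gene, where the capital marks the single base of AKR1C2 that differs from AKR1C1 over 246 aligned bases (99.6% identity).
AKR1C1 chr10:4963165-4963414, plus strand: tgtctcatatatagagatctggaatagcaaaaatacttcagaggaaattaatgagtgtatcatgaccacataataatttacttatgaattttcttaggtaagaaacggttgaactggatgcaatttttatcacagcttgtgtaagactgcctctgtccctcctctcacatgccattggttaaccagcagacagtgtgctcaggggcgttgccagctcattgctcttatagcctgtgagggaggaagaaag
AKR1C2 chr10:5003858-5004107, minus strand: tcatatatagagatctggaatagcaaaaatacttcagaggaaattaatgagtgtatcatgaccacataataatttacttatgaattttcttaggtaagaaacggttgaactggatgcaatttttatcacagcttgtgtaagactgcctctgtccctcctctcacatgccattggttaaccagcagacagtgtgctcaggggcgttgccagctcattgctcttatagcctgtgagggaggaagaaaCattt
The windows before the 2 RefSeq start sites of AKR1C3 are 74.0% and 73.6% identical to that of AKR1C1. None of these windows holds the motif searched above.

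The 3 AKR1C genes together were at 16.6 FPKM in vehicle, 18.3 under CDK2i and 7.49 under EZH2i. The EZH2i library was low and the others close to each other. The log2 change of the sum was 0.14 in CDK2i (95% CI −0.09 to 0.37) and −1.15 in EZH2i (−1.46 to −0.85), a 2.22-fold lower level that was past its spread of 0.84. Taken as 1 gene the sum was above the minimum in vehicle and was called lower in EZH2i. Between settings its EZH2i change ran from −0.91 with the summed FPKM of the libraries made equal, where the call ended, to −1.45 with the GC and length trend removed. Against CDK2i the EZH2i change of the sum was −1.29, and it was called lower under each of the scalings and the trend removal tried.

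By gene, AKR1C2 (GRCh37 chr10:5029967-5060223, minus strand) was at 6.52 FPKM in vehicle, 7.70 under CDK2i and 2.01 under EZH2i. Its log2 change of −1.70 in EZH2i (95% CI −2.29 to −1.14) was past its spread of 1.05, and that in CDK2i was 0.24. AKR1C3 (chr10:5077546-5149878, plus strand) was at 7.42, 6.85 and 3.63 FPKM in the same order. Its changes were −0.11 in CDK2i (95% CI −0.49 to 0.24) and −1.03 in EZH2i (−1.49 to −0.58), just within its spread of 1.06.

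AKR1C1 (chr10:5005445-5025475, plus strand) was the least expressed, at 2.66, 3.74 and 1.85 FPKM. The log2 changes were 0.49 in CDK2i (95% CI −0.07 to 1.06) and −0.52 in EZH2i (−1.25 to 0.13), both within its spread of 0.97. All 3 genes were lowest in EZH2i. AKR1C2 made up 39.3% of the sum in vehicle, 42.1% in CDK2i and 26.8% in EZH2i, and AKR1C1 16.0%, 20.4% and 24.7%. The fourth member of the cluster, AKR1C4, was listed at 0 in vehicle and CDK2i and at 0.363 FPKM in EZH2i.

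The EZH2i library differed from vehicle along GC content and transcript length across expressed genes, and this bears on the target genes directly. Ribosomal protein genes were left out here. Over the 10151 other expressed genes with a known transcript, which are not independent replicates, the EZH2i change had a Spearman correlation of −0.58 with GC content and 0.49 with length. The CDK2i change had 0.03 and 0.09. GCLM has a GC content of 37.3%, TXNRD1 43.8% and HMOX1 57.7%, while the median of these genes is 49.8%. SLC7A11, GCLM, TXNRD1 and GCLC, whose EZH2i values were the farthest above vehicle, are thus all below the median GC content, as are the 3 AKR1C genes, which lay on the other side.

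**Figure D3:**
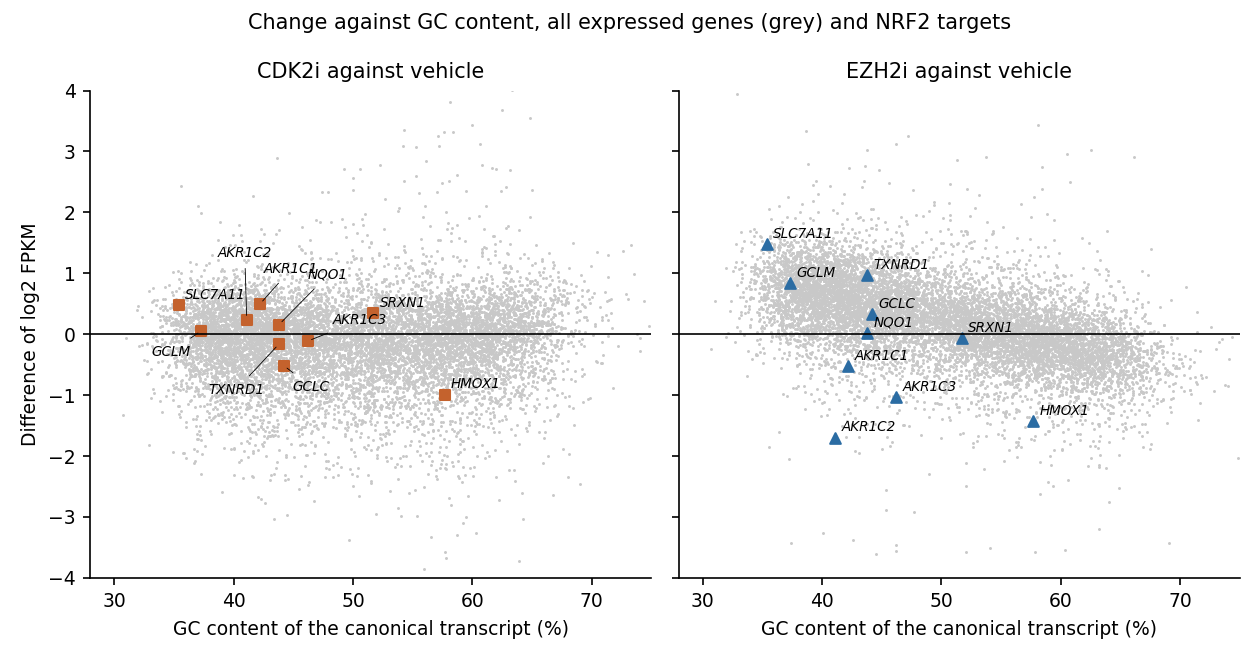
Difference of log2 FPKM from vehicle (y axis, shown from −4 to 4) against the GC content of the canonical transcript in percent (x axis) for CDK2i (left) and EZH2i (right). Grey points are the 10151 expressed genes with a known transcript, without ribosomal protein genes, and coloured symbols the 10 NRF2 target genes. In EZH2i the grey cloud slopes down with GC content, and the AKR1C genes, at 41.1% to 46.2% GC, have changes from −1.70 to −0.52.

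With the trend removed by a polynomial in GC content and log length, the EZH2i change of GCLM went from 0.84 to 0.07 and that of TXNRD1 from 0.97 to 0.44. SLC7A11 went from 1.48 to 0.52 and GCLC from 0.34 to −0.17. HMOX1 went from −1.43 to −1.14, about the size of its spread. AKR1C1 went from −0.52 to −1.26 and AKR1C2 from −1.70 to −2.24, both then past their spread, and AKR1C3 went from −1.03 to −1.06. The removal used canonical transcripts of 6543, 3215 and 1186 bases for AKR1C1, AKR1C2 and AKR1C3 in that order. The gene lengths behind the FPKM are not known, so how far these 3 genes shift depends on the transcript taken. After removal no target gene was above its spread on the higher side in EZH2i. The 3 AKR1C genes were all below vehicle, AKR1C1 and AKR1C2 past their spread and AKR1C3 just within its own. The spread here is that of the deposited values and still holds the trend, so it is not matched to the values after removal. HMOX1, SRXN1 and SLC7A11 are below the level of the genes on which the trend was fitted. In CDK2i the same removal left NQO1 at 0.38, HMOX1 at −0.78 and GCLC at −0.33.

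**Figure D4:**
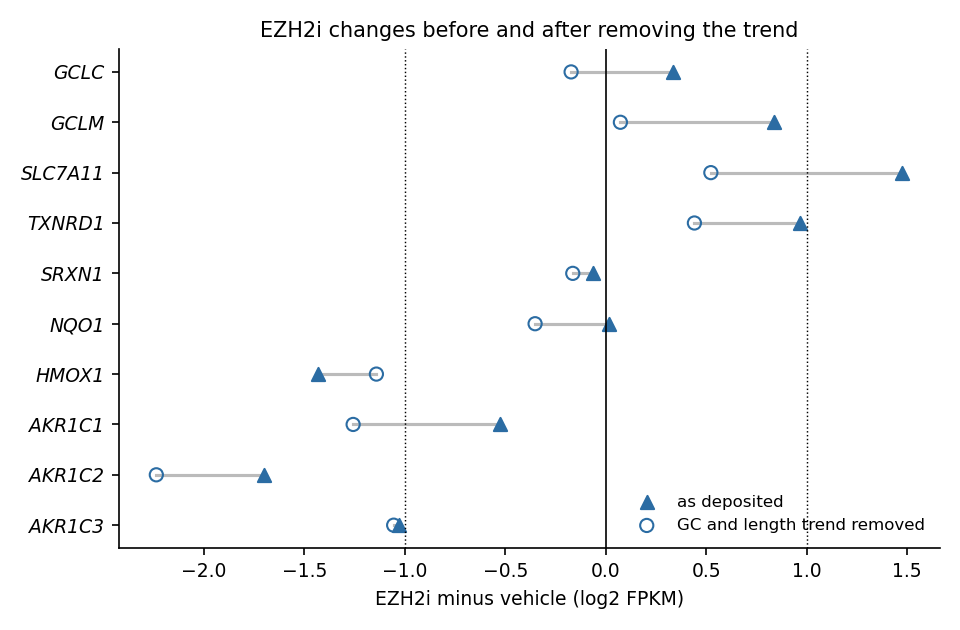
EZH2i minus vehicle in log2 FPKM (x axis) for the 10 NRF2 target genes (rows), as deposited (triangles) and with the GC and length trend removed (open circles). GCLM moved from 0.84 to 0.07, whereas AKR1C2 moved away from 0, from −1.70 to −2.24.

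Among the regulators of NRF2, NFE2L2 itself was called lower in CDK2i and not in EZH2i. NFE2L2 was at 18.5 FPKM in vehicle, 9.21 under CDK2i and 24.3 under EZH2i, with log2 changes of −1.01 and 0.39. The CDK2i value sits at the 2-fold line, and the call ended in 4 of 6 other settings, with −0.79 when the GC and length trend was removed. KEAP1 was at 36.8, 22.4 and 30.7 FPKM, with changes of −0.72 and −0.26, and was not called.

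MAFF was called higher in CDK2i, at 20.4 FPKM in vehicle, 44.1 under CDK2i and 19.3 under EZH2i, a log2 change of 1.12 past its spread of 0.74, and this call ended in 1 of 6 other settings. These 2 calls were the only ones among the 11 regulators, 7 of which could have passed in CDK2i and 8 in EZH2i. The list medians were 0.00 and 0.19, beside −0.11 and 0.19 over 11109 expressed genes. All 9 immediate early genes listed (FOS, FOSB, FOSL1, JUN, JUNB, EGR1, IER2, DUSP1, ZFP36) were called higher in CDK2i with a median of 3.09. Of the 6632 genes that could have passed in CDK2i, 3.27% were called higher and 8.07% lower. A link of MAFF to these genes was not tested. In EZH2i FOSL1 was called higher by 1.43 and EGR1 lower by −1.29. RBX1, named after its values were seen, was at 2.58 FPKM in vehicle, 0.168 under CDK2i and 2.93 under EZH2i, below the minimum throughout. Its CDK2i change of −3.94 (95% CI −6.36 to −2.39) rests on about 3.21 fragments per kilobase in that library.

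The wider glutathione list (16 of 17 genes measured) held 1 call. GGT1, which splits extracellular glutathione, was at 16.3 FPKM in vehicle, 15.7 under CDK2i and 6.16 under EZH2i and was called lower in EZH2i, with a log2 change of −1.41. Of the 10 genes of this list that could have passed, 0 were called in CDK2i. Among all genes that could have passed, 3.27% were called higher and 8.07% lower in CDK2i, and 8.93% higher and 4.42% lower in EZH2i. The list medians were 0.01 in CDK2i and −0.30 in EZH2i, beside −0.11 and 0.19 over 11109 expressed genes. The same shares and medians are the background of the lists below. All list medians given here are of deposited values, from which the GC and length trend was not removed. The part of that trend in the EZH2i medians was not tested.

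In the thioredoxin list (7 of 7 measured) TXNIP, which binds and inhibits thioredoxin rather than serving it, was the single call. It was at 13.7 FPKM in vehicle, 11.2 under CDK2i and 4.93 under EZH2i and was called lower in EZH2i, with a change of −1.48. Among all genes, 4.42% of 7414 were called lower there. The medians of this list were 0.18 in CDK2i and −0.32 in EZH2i.

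The NADPH supply genes, which feed both systems, held no call among the 5 that could have passed. All 6 lay above 0 in CDK2i with a median of 0.25, while in EZH2i 2 lay above 0 and 4 below with a median of −0.13. ME1 was below the minimum.

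Of the heme and iron genes (8 of 8 measured, 7 able to pass), FTH1 and BLVRB were called lower in EZH2i and none in CDK2i. Among all genes, 4.42% of 7414 were called lower in EZH2i. FTH1, the iron-storing heavy chain of ferritin, was at 180.3 FPKM in vehicle, 214 under CDK2i and 81.2 under EZH2i, a change of −1.15. BLVRB, a biliverdin reductase downstream of HMOX1, was at 35.0, 42.9 and 16.2 FPKM, a change of −1.11 that went to −0.51 with the GC and length trend removed, where its call ended. Both calls also ended with the summed FPKM made equal. The list medians were 0.25 in CDK2i and 0.03 in EZH2i.

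CBR3, a carbonyl reductase, was the only one of the other detoxification genes to be called, and it was lower in both treated tumors. Among all genes, 8.07% of 6632 were called lower in CDK2i and 4.42% of 7414 in EZH2i. It was at 10.2 FPKM in vehicle, 3.26 under CDK2i and 3.66 under EZH2i, with changes of −1.65 and −1.49 against a spread of 1.02, and both calls held in 6 of 6 other settings. The vehicle library is shared by these comparisons. Of this list 16 of 17 genes were measured, 6 could have passed in CDK2i and 7 in EZH2i, and the medians were 0.03 and −0.14.

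**Figure D5:**
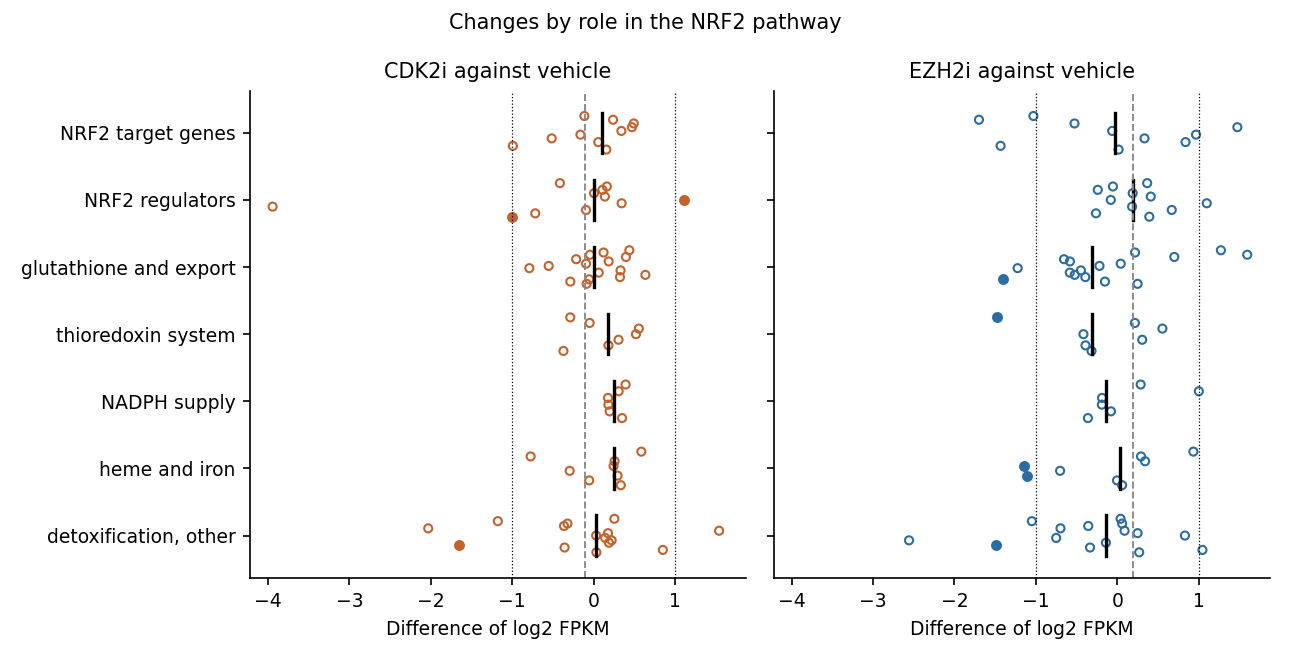
Difference of log2 FPKM from vehicle (x axis) for genes of the NRF2 pathway by role (rows) in CDK2i (left) and EZH2i (right). Circles are genes with no value at 0, filled where called, black bars are list medians, the dashed line is the median over 11109 expressed genes and dotted lines mark 2-fold. The 10 NRF2 target genes hold no filled circle, and the far left circle among the regulators is RBX1 at −3.94.

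The ATF4 response, which shares SLC7A11 as a target with NRF2, held 2 calls among the 6 genes that could have passed in CDK2i and 0 in EZH2i. Among all genes, 3.27% of 6632 were called higher and 8.07% lower in CDK2i. DDIT4, an inhibitor of mTORC1, was at 88.0 FPKM in vehicle, 323 under CDK2i and 64.0 under EZH2i and was called higher in CDK2i, with a log2 change of 1.88. TRIB3, a pseudokinase, was called lower in CDK2i by −1.03, a value at the 2-fold line whose call ended in 4 of 6 other settings. The medians over its 11 genes were −0.30 in CDK2i and −0.32 in EZH2i.

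Most markers of other cell types were below the minimum. In EZH2i the macrophage, endothelial and hepatocyte sums were lower than in vehicle, and the fibroblast sum was higher. Host cells are of mouse while the reference genome is human, so these sums do not measure how many host cells were present. The 8 fibroblast markers summed to 25.0 FPKM in vehicle, 39.2 under CDK2i and 31.1 under EZH2i, with LUM called higher in CDK2i by 1.02, a value at the 2-fold line whose call ended in 2 of 6 other settings. The 4 measured endothelial markers summed to 0.881, 0.876 and 0.545 FPKM. Of the hepatocyte markers only ALB and SERPINA1 were measured, and they summed to 14.4, 16.2 and 9.11 FPKM, nearly all SERPINA1. The part of other cells in the target gene values was not tested.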

How the data were processed

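RNAseq was made from total RNA of SUM-149 xenograft tumors, 3 libraries in all, 1 per group. The submitters' processing notes name CASAVA, STAR and hg19, and the study gives GRCh37. The counting tool, gene lengths, versions and any removal of mouse fragments are not given in the sources used here. The authors deposited log2 FPKM per gene symbol, with −9 in place of an FPKM of 0. All 3 columns were matched to samples by their names.

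Changes were differences of log2 FPKM with no pseudocount, computed with Python 3.11.15, numpy 2.4.6, pandas 2.3.3 and scipy 1.17.1. The study's limma p-values were not repeated, since 1 library per group gives no error. Genes were taken as expressed where their log2 FPKM averaged above 1 with none at −9. GC content and length are of canonical GENCODE 44 transcripts on GRCh37, found for 10232 (92.1%) of the 11109 expressed genes. The trend is a degree 3 polynomial, fitted on the 10151 of these that are not ribosomal protein genes. Depth was read from the FPKM step of 1 fragment. For HMOX1, SRXN1 and SLC7A11 a single gene length gave whole fragment numbers. For the other genes the intervals take the fragments on 1000 bases, shorter than each transcript, so these intervals are wider than counting error alone. The interval of the AKR1C sum was made in the same way. Fragments sequenced without molecular identifiers are not independent molecules. The scripts were tested on simulated data.

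All 10 target genes, NFE2L2 and KEAP1 are named, of each pathway list the genes called in either comparison (at most 4 by size), and up to 4 markers per list. AKR1C4 and RBX1 were named after their values were seen. The genes and lists were chosen with earlier results of these data known. Alternatives were fold thresholds of 1.5 and 3, minimums of log2 FPKM 1 and 5 or none, pseudocounts of 1 and 0.1 FPKM, 3 scalings (median gene, equal summed FPKM, the same without ribosomal protein and mitochondrially encoded genes), removal of the GC and length trend, and the AKR1C genes summed. Figures were drawn with matplotlib 3.10.9, and sequences aligned with biopython 1.88.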

Additional observations from a re-analysis of the deposited data

How the results depend on the processing

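In CDK2i the count of 0 called target genes held under each alternative. In EZH2i the count of 0 became 2 with a fold of 1.5 or with equal summed FPKM (GCLM and TXNRD1 higher), 1 with equal summed FPKM without ribosomal protein and mitochondrially encoded genes (TXNRD1 higher), 4 with no minimum, 3 with a minimum of log2 FPKM 1 (HMOX1, AKR1C2 and AKR1C3 lower) and 1 with the AKR1C genes summed (lower). Between EZH2i and CDK2i the count of 1 became 3 with a fold of 1.5, 0 with a fold of 3, 4 with no minimum, 3 with a minimum of log2 FPKM 1, 0 with a minimum of log2 FPKM 5, 2 under both scalings to equal sums, 2 with the trend removed (AKR1C2 and AKR1C3 lower) and 2 with the AKR1C genes summed. It stayed 1 with a pseudocount of 1 FPKM and with the libraries centred on the median gene, but the gene was then AKR1C2 (lower) in place of TXNRD1. For the changed fold, minimum and summing the construction of the alternative sets the count, and for the scalings and the trend the cause was not tested. Shares over all genes were computed for the main thresholds and, against vehicle, for the fold alone (16.1% higher and 10.9% lower in EZH2i). The other counts have no such share beside them and are not results about the target genes. With equal summed FPKM the median EZH2i change over 11109 expressed genes was itself 0.43.

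The median of the target genes ran from −0.04 to 0.28 in CDK2i and from −0.26 to 0.22 in EZH2i. Of 134 changes of single genes under the alternatives, 125 stayed within their counting interval, 9 did not and 10 differed in sign, all of them small values of GCLM, TXNRD1 or AKR1C3 in CDK2i and of NQO1, GCLC or SRXN1 in EZH2i. The widest ranges in EZH2i were those of GCLM, from 0.07 to 1.08, and SLC7A11, from 0.36 to 1.72. The AKR1C sum under each scaling was computed after seeing the data. No paired analysis was possible because each group has 1 library, and no replicate could be left out. Depth limits SRXN1 most, at 9 to 13 fragments.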
